A study of Caenorhabditis elegans with 6 samples.

Results

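The cytochrome P450 genes of Caenorhabditis elegans were followed in RNA of whole animals. The set holds every gene whose WormBase symbol is cyp- followed by a number (74 genes), with daf-9, a P450 gene named for its role in dauer formation, and emb-8, which encodes NADPH-cytochrome P450 reductase. These are 76 of the 46911 gene identifiers in the count tables, and all 76 are annotated as protein coding. The series set animals of genotype nmr-2(ok3324) against wild-type N2 animals (WT). nmr-2 encodes a subunit of a glutamate receptor of the NMDA class, and ok3324 is an allele of it. Each genotype had 3 libraries of total RNA from populations synchronised by egg laying, grown at 20 °C on the OP50 strain of Escherichia coli and taken as L4 larvae, the last larval stage. No agent was given, so P450 RNA was measured without a xenobiotic other than the bacterial diet and the medium. Whether the 3 libraries within each genotype are separate cultures is not stated in the labels, so every p-value reflects spread among libraries that could be technical. Outcrossing of the mutant is not stated either.

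P450 enzymes hold a haem group bound to a cysteine and insert an oxygen atom into sterols, fatty acids and foreign compounds. Those of the endoplasmic reticulum take electrons from NADPH through the reductase that emb-8 encodes, and mitochondrial members take them from a ferredoxin. In the worm, P450 enzymes make the steroid hormone dafachronic acid, oxygenate polyunsaturated fatty acids to eicosanoids, take part in building the lipid barrier of the eggshell, and carry out the first step in the breakdown of drugs and pollutants, mainly in the intestine. The comparison asks of the set which of these genes differ between nmr-2(ok3324) and WT animals.

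The mutant libraries held 21234748 to 27893186 counts and the WT libraries 23070856 to 25202816. Levels are given as counts per 1000000 counts (CPM), scaled with TMM factors, which correct library totals for differences in composition. These factors lay between 0.986 and 1.01 in 4 libraries, but nmr-2(ok3324) replicate 2 had 1.196 and WT replicate 2 had 0.838, so the comparison was also fitted without both. A value of 3 counts was worth 0.106 to 0.145 CPM, depending on the library. The nmr-2 gene itself had 3, 5 and 5 counts in the mutant libraries, against 7, 2 and 10 in the WT libraries, too few to check the genotype labels. Of the markers of intestine, epidermis, body wall muscle, germline and neurons found in the tables, none was at 0 in all 6 libraries.

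Of the 76 genes, 44 passed the low-count filter and were tested, 26 had between 1 and 56 counts over the 6 libraries and were not tested, and 6 had no count at all. The filter asked for enough counts in at least 3 libraries, the size of 1 genotype, so a gene could pass through the genotype where it was higher. It was not a clean cut by mean level: the most abundant gene left out averaged 0.390 CPM over the 6 libraries, and the least abundant gene tested 0.355 CPM.

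The genes lie close together in the genome. By the WBcel235 annotation, 41 of 76 (53.9%) are on chromosome V, which holds 25% of protein-coding genes, and 45 genes sit in 11 runs in which neighbouring members are at most 20 kb apart. The longest run, chromosome V 3936326 to 3972991, holds the 10 genes cyp-35A5, cyp-35B1 to cyp-35B3 and cyp-34A5 to cyp-34A10. Neighbours there differed widely in level. cyp-34A8 averaged 7.83 ± 2.31 CPM in the mutant and 11.5 ± 0.844 CPM in WT (SD, n = 3 each), while cyp-34A7, the next gene, had 1 count in all 6 libraries and cyp-35B1 to cyp-35B3 had 0. The next longest run, chromosome II 9779181 to 9807569, holds cyp-13A1 to cyp-13A8, of which cyp-13A2 averaged 3.73 ± 0.817 CPM in the mutant and 3.11 ± 0.796 CPM in WT, and cyp-13A5 was the only other one tested. Some runs hold genes of 1 subfamily and others mix families, as the 10-gene run does. Reads that fit more than 1 gene can have been split or dropped by the counting, which the sources used here do not describe, and identity between genes was not measured. 25 of the 76 genes also share some exonic bases with another gene, on the opposite strand except for cyp-44A1, which shares 24 bases with npp-24 on its own strand, and the strand setting of the counting is not given.

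Between genes, levels were compared per kilobase of exon. A small number of genes gave most of the RNA. The highest was cyp-31A2, at 50.3 ± 4.81 CPM per kilobase in the mutant and 61.9 ± 3.24 in WT. It was followed by emb-8, at 45.6 ± 0.774 CPM per kilobase in the mutant and 50.5 ± 1.72 in WT, and by cyp-31A3 and cyp-31A5, the other genes of the 31A subfamily. These 4 genes held 59.7% of the CPM of all 76 in the mutant and 60.9% in WT. Then came cyp-35A2, at 21.8 ± 5.26 CPM per kilobase in the mutant and 25.3 ± 6.12 in WT, cyp-44A1, at 17.9 ± 0.988 in the mutant and 16.3 ± 1.08 in WT, and cyp-35C1, at 12.8 ± 2.88 in the mutant and 15.5 ± 3.24 in WT. Per kilobase, the libraries of cyp-35A2 and cyp-44A1 overlapped in the mutant, while in WT every cyp-35A2 value was above every cyp-44A1 value. All other genes were below 10 CPM per kilobase, from cyp-37A1 at 7.75 ± 0.929 in the mutant and 7.50 ± 0.336 in WT down to genes with a single count. The plot of levels by library shows this order.

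**Figure D1:**
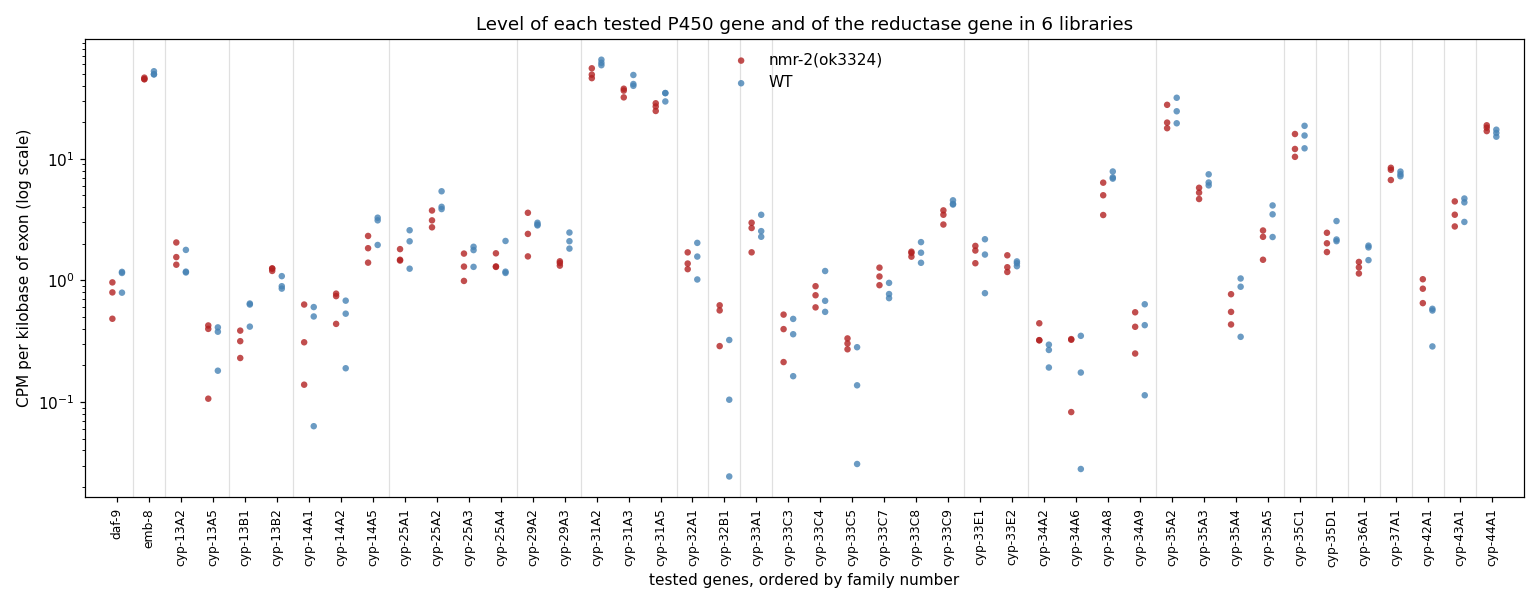
Level of each of the 44 tested genes in CPM per kilobase of exon (log axis), with 1 point per library, nmr-2(ok3324) in red to the left of WT in blue. The genes of the 31A subfamily and emb-8 stand above the rest, and members of 1 subfamily, such as cyp-34A8 and cyp-34A6, lie far apart.

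No P450 gene was called as different between the genotypes. Of 44 tested genes, 0 rose and 0 fell in nmr-2(ok3324) animals by edgeR's quasi-likelihood test at an adjusted p of 0.05, against 2.16% of all 13138 genes tested, of which 1.79% rose and 0.373% fell. DESeq2 and limma-voom also called 0. An unadjusted p under 0.05 was reached by 10 of the genes, 8 lower and 2 higher in the mutant. Over all tested genes this share was 17.2%, with 6.92% lower and 10.3% higher. The smallest adjusted p was 0.18. The intervals bound the size of the differences. For 27 of the 44 genes the 95% interval of the difference lay within 2-fold in either direction, and for 7 it lay within 1.5-fold. Each interval is for 1 gene and is not adjusted for the number of genes. In the 34 tested genes whose mean reached 1 CPM, no log2 fold change was beyond 0.83 in either direction.

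**Figure D2:**
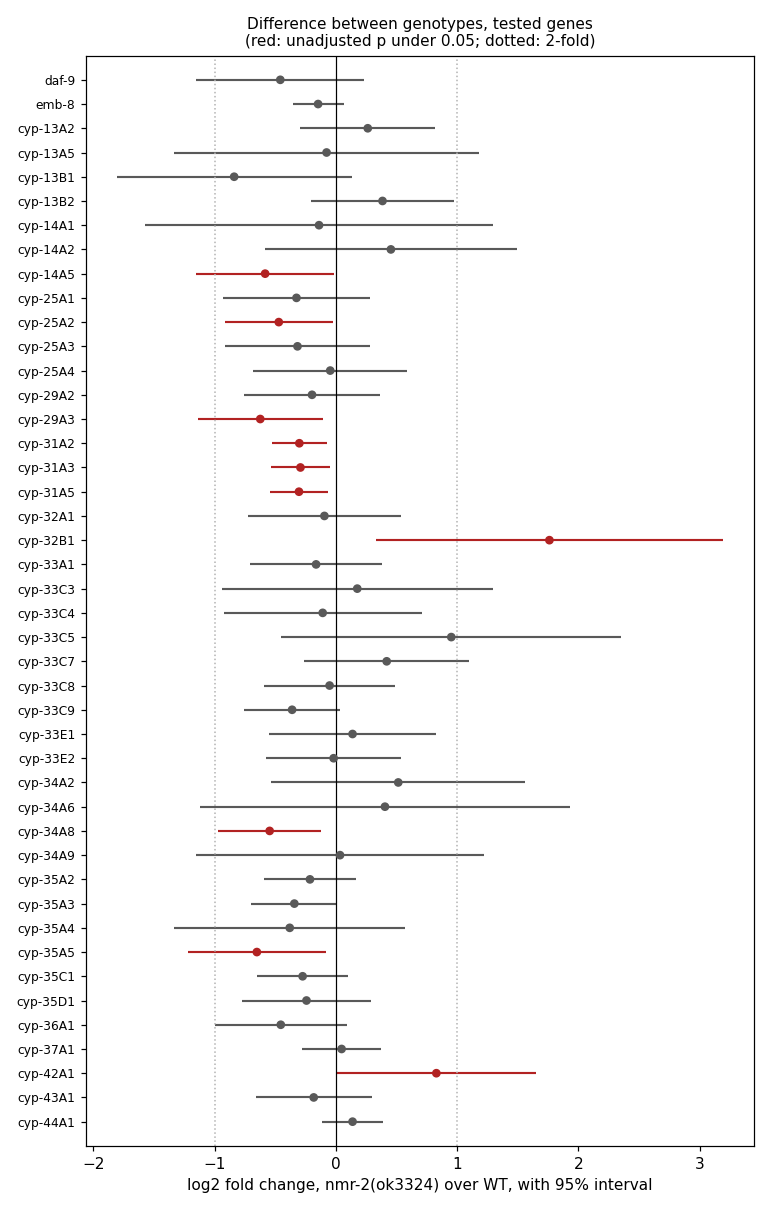
Log2 fold change of nmr-2(ok3324) over WT for the 44 tested genes, with its 95% interval from the edgeR fit. Intervals in red are those of the 10 genes with an unadjusted p under 0.05, and dotted lines mark 2-fold; the widest interval of these 10 is that of cyp-32B1.

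The 31A genes and the reductase gene were the most abundant members and varied little between libraries. cyp-31A2 and cyp-31A3 are known to act with emb-8 in making lipids of the eggshell barrier. cyp-31A2 (chromosome IV, 11403961 to 11406091) had 80.3, 75.1 and 90.6 CPM in the mutant libraries, against 106.6, 96.0 and 100.5 CPM in the WT libraries. Every mutant library was below every WT library, and the log2 fold change was -0.30 (SE 0.11, 95% interval -0.53 to -0.07, edgeR adjusted p = 0.18). cyp-31A3 (chromosome IV, 4761049 to 4762885) had 60.2, 51.1 and 58.1 CPM in the mutant, against 65.8, 78.1 and 63.6 CPM in WT, again without overlap (-0.29, SE 0.11). cyp-31A5 (chromosome IV, 13401289 to 13403842), a shorter gene model of 308 codons where cyp-31A2 and cyp-31A3 have 495, had 37.7, 34.6 and 40.1 CPM in the mutant, against 48.6, 41.5 and 48.6 CPM in WT (-0.30, SE 0.11). Because genes of 1 subfamily may share reads, the counts of these genes were also summed as 1 gene, an alternative added after the data were seen. The log2 fold change was then -0.31 (SE 0.11, edgeR adjusted p = 0.18). Summing joins reads split between the genes but cannot restore reads dropped by the counting. A sum of genes that are all near -0.30 also had to lie near that value, so it is no separate support. Scaled by library totals alone, the distance from the median of all tested genes was -0.34 for cyp-31A2, -0.32 for cyp-31A3 and -0.35 for cyp-31A5. TMM factors gave -0.33, -0.32 and -0.33. A change of scaling moves all genes by nearly the same amount, so these distances could hardly differ and are no separate support. Without both libraries numbered 2, cyp-31A3 was at -0.13.

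emb-8 (chromosome III, 5196680 to 5199677) had 103.4, 103.9 and 106.7 CPM in the mutant libraries, against 113.8, 120.4 and 113.5 CPM in the WT libraries. The groups did not overlap, but the difference was small (log2 fold change -0.15, SE 0.10, 95% interval -0.36 to 0.06, edgeR adjusted p = 0.44), and with libraries scaled by totals alone it was 0.03. That scaling gave a median of 0.20 for all tested genes, where TMM factors gave 0.03. Relative to the median emb-8 was at -0.17 under both, a distance that a change of scaling could hardly alter. In the list of 9 eggshell barrier genes, of which cyp-31A2, cyp-31A3 and emb-8 are part, 0 passed and 8 had a negative log2 fold change, with a median of -0.29, where the median of all tested genes was 0.03. The genes with the smallest p in it were dgtr-1, an acyltransferase gene of the eggshell lipid layer (-0.38, SE 0.13), and perm-1, needed for the permeability barrier (-0.35, SE 0.13). Germline markers lay on the same side: the summed level of all 10 was 4513, 3675 and 4695 CPM in the mutant libraries, against 5022, 5656 and 4839 CPM in the WT libraries, their median log2 fold change was -0.25, and 0 of 10 passed. The median of all tested genes fell with level: it was -0.08 at 58.8 to 116.8 CPM and -0.19 above that. Most of the eggshell barrier genes, emb-8, cyp-31A2 and cyp-31A3 among them, and most germline markers were at these levels. The median of 0.03 therefore overstates their distance from genes of like level. In bulk RNA, fewer germ cells and less of these transcripts per cell cannot be told apart, and the part of the germline level in the 31A values was not tested. The partners of P450 enzymes, emb-8 among them, also stayed under the threshold: of 6 genes for the reductase, cytochrome b5, its reductase and the mitochondrial electron carriers, 0 passed and 6 were negative (median -0.12), led by hpo-19, a cytochrome b5 reductase gene, at -0.25 (SE 0.10). Of 6 haem transport genes 0 passed (median -0.18), with the smallest p in the haem exporter gene mrp-5 at 0.27 (SE 0.13).

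The cyp-35 genes are known as strong responders to foreign compounds in the worm intestine, and loss of several lowers fat stores. All 6 tested members had negative log2 fold changes, between -0.65 and -0.21, and 0 passed. Over all tested genes 46.6% were negative. With libraries scaled by totals alone the 6 lay between -0.48 for cyp-35A5 and -0.03 for cyp-35A2, where 24.2% of all tested genes were negative. cyp-35A2 (chromosome V, 7362319 to 7364182), the most abundant, had 31.5, 44.1 and 28.4 CPM in the mutant libraries, against 39.1, 31.1 and 50.5 CPM in the WT libraries. The groups overlapped, with the mutant's highest value and the lowest WT value both in a library numbered 2 (-0.21, SE 0.18, edgeR adjusted p = 0.53). cyp-35C1 (chromosome V, 13896663 to 13898487) had 15.9, 24.5 and 18.5 CPM in the mutant, against 23.8, 18.7 and 28.7 CPM in WT, with the same libraries out of line (-0.27, SE 0.18). With nmr-2(ok3324) replicate 2 left out, cyp-35A2 was at -0.43 and cyp-35C1 at -0.47. With WT replicate 3 left out, they were at -0.03 and -0.13, and no other single omission took either gene outside these ranges. cyp-35A5 had 2.55, 4.44 and 3.94 CPM in the mutant, against 7.14, 3.93 and 6.04 CPM in WT, and both mutant replicates 2 and 3 were above WT replicate 2 (-0.65, SE 0.27, edgeR adjusted p = 0.23). cyp-35A3 had 7.41, 8.37 and 9.17 CPM in the mutant, against 9.60, 10.1 and 11.8 CPM in WT, without overlap (-0.34, SE 0.17). cyp-35A4 averaged 0.908 ± 0.265 CPM in the mutant and 1.17 ± 0.566 CPM in WT, and cyp-35D1, which is known to metabolise the drug thiabendazole, 3.25 ± 0.597 CPM in the mutant and 3.86 ± 0.857 CPM in WT. cyp-35A1, with 2 counts in all in the mutant and 6 in WT, was not tested.

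Members of other families that respond to foreign compounds lay on the same side in part. cyp-34A8 (chromosome V, 3964797 to 3967823) had 7.95, 10.1 and 5.46 CPM in the mutant libraries, against 10.9, 12.5 and 11.1 CPM in the WT libraries. No mutant library reached a WT library (-0.55, SE 0.20, 95% interval -0.97 to -0.12, edgeR adjusted p = 0.19). It was -0.35 without nmr-2(ok3324) replicate 3. cyp-14A5 had 2.87, 3.62 and 2.19 CPM in the mutant, against 5.12, 3.05 and 4.87 CPM in WT, with an overlap through WT replicate 2 (-0.58, SE 0.27). cyp-25A2 had 4.29, 5.90 and 4.89 CPM in the mutant, against 6.33, 6.06 and 8.49 CPM in WT, without overlap (-0.47, SE 0.21, and -0.31 without WT replicate 3). The other 25A genes tested, cyp-25A1, cyp-25A3 and cyp-25A4, had log2 fold changes of -0.33, -0.32 and -0.05. With 1 library left out these ranged from -0.57 to -0.09 for cyp-25A1, from -0.52 to -0.16 for cyp-25A3 and from -0.21 to 0.28 for cyp-25A4. cyp-34A9, also known as a target of the DAF-16 pathway, averaged 0.690 ± 0.254 CPM in the mutant and 0.671 ± 0.449 CPM in WT (0.03, SE 0.56), so its interval of -1.15 to 1.22 covers more than 2-fold either way. In the 33C subfamily, which has 11 members, 6 were tested, 3 with positive and 3 with negative values, from -0.36 for cyp-33C9 to 0.95 for cyp-33C5. cyp-33C9, its most abundant member, had 5.60, 6.09 and 4.66 CPM in the mutant, against 6.80, 6.89 and 7.36 CPM in WT. Of 8 intestine markers tested, 1 fell, the cathepsin B gene cpr-1, at 174 ± 28.4 CPM in the mutant and 283 ± 36.5 CPM in WT (-0.70 on the log2 scale, SE 0.14, edgeR adjusted p = 0.012). The remaining 7 did not pass. The median of these markers was -0.25 and their summed level ran from 2480 to 3665 CPM in the mutant and from 3110 to 4656 CPM in WT. The part of the intestinal level in the P450 values was not tested.

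Leaving out both libraries numbered 2 brought several of these genes past the threshold. For cyp-35A2, cyp-35C1, cyp-35A5 and cyp-14A5 these were the highest mutant and the lowest WT library. Leaving them out by itself lowered the log2 fold change and narrowed the range within each genotype. The calls of these genes below are therefore no separate support for a difference. In that fit 6 of 46 tested P450 genes fell and 0 rose, against 1.4% of 13219 genes that fell and 2.61% that rose. By edgeR, cyp-35A2 was at -0.58 on the log2 scale (SE 0.12, adjusted p = 0.0017). The others were cyp-35C1 (-0.61, SE 0.14, adjusted p = 0.0045), cyp-35A5 (-1.04, SE 0.26, adjusted p = 0.012), cyp-34A8 (-0.70, SE 0.20, adjusted p = 0.029), cyp-14A5 (-0.97, SE 0.28, adjusted p = 0.033) and cyp-31A2 (-0.28, SE 0.08, adjusted p = 0.039). The fit had 2 libraries of each genotype and 2 residual degrees of freedom, with a median of 35.2 prior degrees of freedom borrowed from other genes, so its errors rest mostly on the spread of all genes. Of its 46 genes 35 were negative, and their median was -0.35, where the median of all genes in it was 0.01. Without nmr-2(ok3324) replicate 2 alone, cyp-34A8 was the 1 gene called (-0.77, edgeR adjusted p = 0.048, where 0.389% of all genes fell). That library was its highest in the mutant, so leaving it out by itself lowered the log2 fold change. Neither call of cyp-34A8 is therefore separate support for a difference. Without WT replicate 2 alone, 0 were called. With all 6 libraries none of these genes passed. cyp-31A2 was then at -0.30 (SE 0.11), so without both libraries numbered 2 it passed through a smaller SE, not a larger difference.

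Relative to its size, the log2 fold change of most members shifted when 1 library was left out. Leaving out each of the 6 libraries in turn moved the log2 fold change by over 1.5 times at least once for 31 of the 44 genes, and for 14 of these the sign turned. The 13 others were emb-8, cyp-31A2, cyp-31A3, cyp-31A5, cyp-13B1, cyp-13B2, cyp-14A5, cyp-29A3, cyp-33C7, cyp-33C9, cyp-35A3, cyp-35A5 and cyp-36A1. This measure is a ratio, so a value near 0 counts as moved after a small shift. cyp-44A1 counted as moved with a range of 0.09 to 0.18, and cyp-35A5 did not with a range of -0.87 to -0.45. The counts therefore partly sort genes by distance from 0. Without both libraries numbered 2 the value moved by over 1.5 times for 27 genes, and for 7 of these the sign turned. Among them cyp-34A9 was at -0.65 in that fit, cyp-25A1 at -0.67, cyp-29A2 at -0.56, cyp-33A1 at -0.44, cyp-35A4 at -0.97 and cyp-33C5 at 0.43, and none of these passed.

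**Figure D3:**
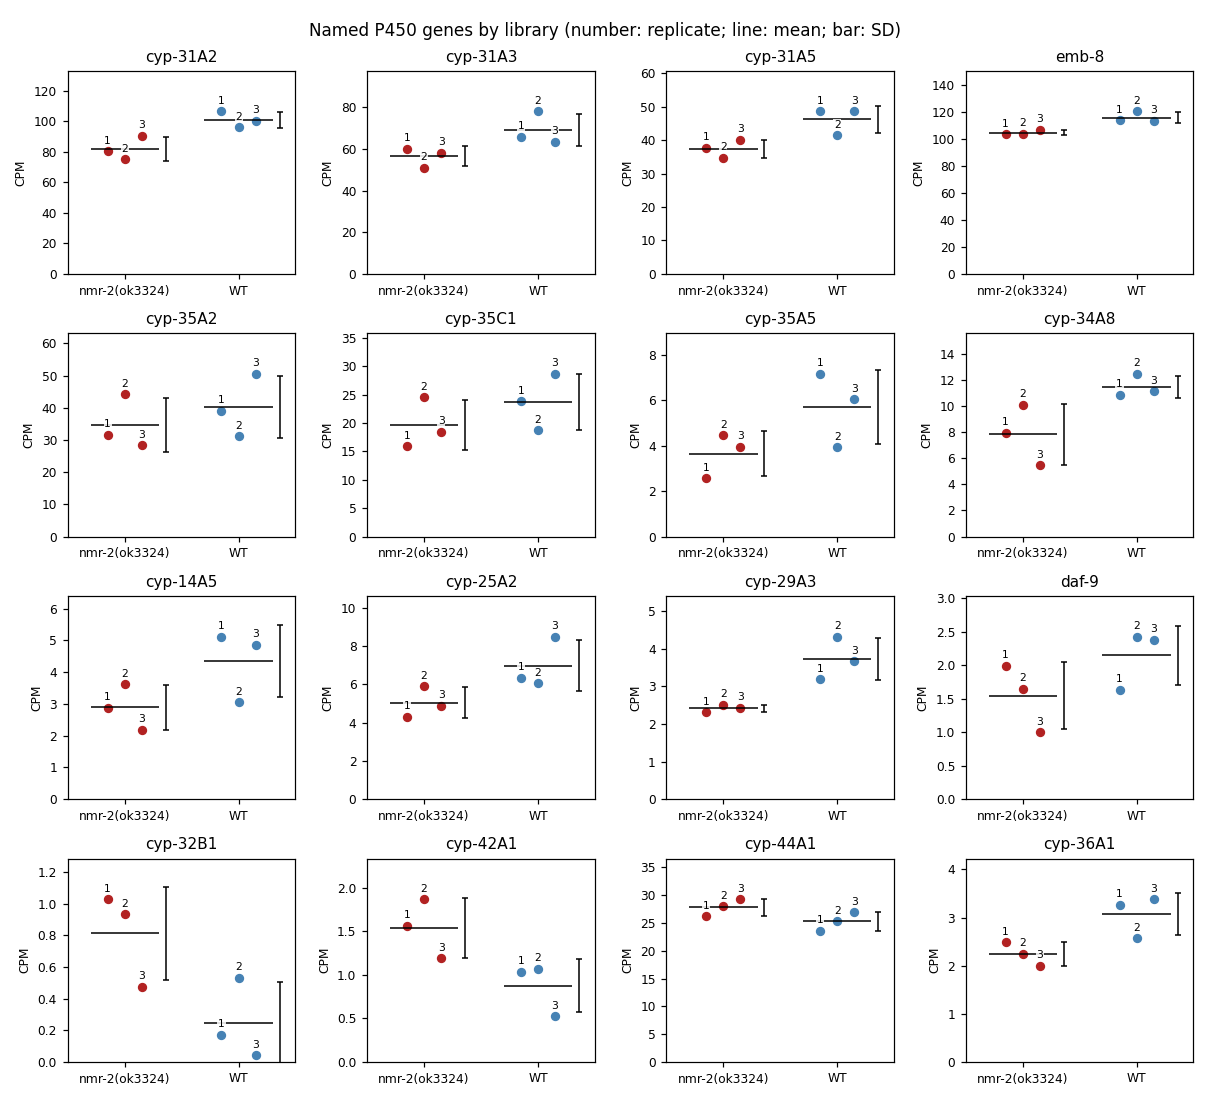
CPM of 16 genes in each library, with the replicate number beside each point, nmr-2(ok3324) left of WT, a line at the mean and a bar of 1 SD (cut at 0 for cyp-32B1 in WT). The 31A genes, cyp-34A8, cyp-25A2 and cyp-29A3 are lower in every mutant library, cyp-42A1 is higher in every one, and cyp-35A2 and cyp-35C1 overlap through the libraries numbered 2.

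Only cyp-32B1 and cyp-42A1 were higher at an unadjusted p under 0.05, and both belong, by family number, among the relatives of fatty acid hydroxylases (families 29, 31, 32, 37 and 42). These families do not set them apart: cyp-31A2 (-0.30), cyp-31A3 (-0.29), cyp-31A5 (-0.30) and cyp-29A3 (-0.62) also belong to them. Those were among the 8 genes lower at that p. cyp-32B1 (chromosome V, 2197997 to 2201415) had 29, 25 and 10 counts in the mutant libraries, or 1.03, 0.934 and 0.475 CPM, against 4, 11 and 1 counts in the WT libraries, or 0.172, 0.533 and 0.0402 CPM. WT replicate 2 overlapped with mutant replicate 3, and the log2 fold change of 1.76 carried a wide error (SE 0.67, 95% interval 0.33 to 3.19, edgeR adjusted p = 0.21). It was 2.91 without WT replicate 2 and 1.22 without WT replicate 3. The low-count filter could pass this gene through its mutant libraries alone. cyp-42A1 (chromosome V, 18912036 to 18918117) had 1.56, 1.87 and 1.19 CPM in the mutant, against 1.03, 1.07 and 0.523 CPM in WT, without overlap (0.83, SE 0.39, 95% interval 0.00 to 1.65, adjusted p = 0.29). It was 0.54 without WT replicate 3. Members of the same families lay elsewhere: cyp-37A1 (chromosome II, 14013819 to 14016965) had 13.2, 10.5 and 12.7 CPM in the mutant, against 11.7, 12.3 and 11.3 CPM in WT (0.05, SE 0.15), and cyp-32A1 averaged 2.43 ± 0.402 CPM in the mutant and 2.61 ± 0.862 CPM in WT.

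Enzymes that oxygenate polyunsaturated fatty acids include CYP-29A3 and CYP-33E2, which are known to contribute to the worm's eicosanoids. cyp-29A3 (chromosome V, 59239 to 63633) had 2.31, 2.502 and 2.42 CPM in the mutant libraries, against 3.18, 4.32 and 3.66 CPM in the WT libraries. The mutant values were close together and all below WT (-0.62, SE 0.24, 95% interval -1.14 to -0.11, edgeR adjusted p = 0.22). cyp-33E2 averaged 2.36 ± 0.394 CPM in the mutant and 2.39 ± 0.109 CPM in WT, a log2 fold change of -0.02 with an interval of -0.58 to 0.54. cyp-29A2, of the same subfamily as cyp-29A3, had 2.73, 6.24 and 4.18 CPM in the mutant, against 5.16, 4.99 and 4.91 CPM in WT, with its mutant values spread on both sides of WT. Of the 10 genes listed for making polyunsaturated fatty acids and handling their epoxides, cyp-29A3 among them, 0 passed (median -0.07). The fatty acid elongase gene elo-2 was at -0.24 (SE 0.11), and the epoxide hydrolase genes ceeh-1 and ceeh-2 were at -0.42 (SE 0.28) and -0.01 (SE 0.26).

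Hormone synthesis was represented by daf-9, which encodes the enzyme for the last step to dafachronic acid, the ligand of the nuclear receptor DAF-12. daf-9 (chromosome X, 6196927 to 6200823) had 56, 44 and 21 counts in the mutant libraries, or 1.99, 1.64 and 0.998 CPM, against 38, 50 and 59 counts in the WT libraries, or 1.64, 2.42 and 2.37 CPM. The groups overlapped (-0.46, SE 0.33, 95% interval -1.15 to 0.24, edgeR adjusted p = 0.46). The value was -0.24 without nmr-2(ok3324) replicate 3, its lowest library, and -0.68 without nmr-2(ok3324) replicate 1. Of 9 tested genes of the dafachronic acid pathway, daf-9 included, 0 passed (median 0.17). The Rieske oxygenase gene daf-36, which acts at the start of the pathway, was at 0.17 (SE 0.23), daf-12 at -0.02 (SE 0.17), and ncr-1, a sterol transport gene with the smallest p of the list, at 0.42 (SE 0.16).

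cyp-44A1 (chromosome II, 5504044 to 5505975), by sequence the worm's mitochondrial P450, was the most abundant member with a positive difference. It had 26.2, 27.97 and 29.3 CPM in the mutant libraries, against 23.6, 25.3 and 26.9 CPM in the WT libraries (0.14, SE 0.12, 95% interval -0.11 to 0.39, edgeR adjusted p = 0.54), and the groups overlapped. cyp-36A1, which is known to act below the hypoxia factor HIF-1 in behaviour, had 2.48, 2.24 and 2.00 CPM in the mutant, against 3.27, 2.57 and 3.38 CPM in WT, without overlap (-0.45, SE 0.26, adjusted p = 0.36). 147 of its exonic bases are shared with figo-1 on the opposite strand. Of the 9 genes of the hypoxia pathway list, which holds cyp-36A1, 0 passed (median 0.01): hif-1 was at -0.12 (SE 0.10), egl-9, the oxygen sensor, at -0.08 (SE 0.15), and nhr-46, a nuclear receptor gene that acts with cyp-36A1, at -0.30 (SE 0.13). cyp-43A1 had 4.72, 7.58 and 5.89 CPM in the mutant, against 7.44, 5.14 and 8.01 CPM in WT (-0.18, SE 0.23). It ranged from -0.39 to -0.03 with 1 library left out and was -0.55 without both libraries numbered 2. cyp-33A1 and cyp-33E1 had log2 fold changes of -0.16 (SE 0.26) and 0.14 (SE 0.32), and both turned sign with 1 library left out, between -0.33 and 0.03 for cyp-33A1 and between -0.18 and 0.48 for cyp-33E1. In the 13B subfamily the 2 genes lay on opposite sides without overlap of the groups: cyp-13B2 averaged 2.20 ± 0.0577 CPM in the mutant and 1.69 ± 0.218 CPM in WT (0.38, SE 0.28), and cyp-13B1 0.514 ± 0.129 CPM in the mutant and 0.934 ± 0.213 CPM in WT (-0.84, SE 0.46). Neither passed.

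As a set, the tested genes lay slightly below other genes, though hardly so in nmr-2(ok3324) replicate 2. Of the 44, 30 had a negative and 14 a positive log2 fold change, with a median of -0.16, where the median of all tested genes was 0.03. With libraries scaled by totals alone the direction turned: 20 were negative and 24 positive, with a median of 0.02 where that of all genes was 0.20. The distance between the median of the set and that of all genes was -0.18 with TMM factors, with RLE factors and with totals alone. A change of scaling moves all genes by nearly the same amount, so this distance could hardly differ. The match is therefore no separate support for a shift. The mutant libraries were all below the WT libraries for 11 of the 44 genes (25%) and all above for 3 (6.82%), where the shares over all tested genes were 11% and 13.4%. With totals alone these were 3 genes lower and 5 higher, where all genes gave 3.31% and 19.8%. With TMM factors, the median log2 CPM difference of the set from the WT mean was -0.22, 0.05 and -0.23 in mutant replicates 1, 2 and 3. All tested genes gave 0.02, 0.08 and 0.01, so in mutant replicate 2 the set was close to other genes. No test was made of the set.

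The summed level of all 76 genes was 457.6, 482.6 and 469.4 CPM in the mutant libraries, against 543.1, 527.6 and 565.2 CPM in the WT libraries. The mutant sum was 0.862 times the WT sum and the groups did not overlap. With totals alone the sums were 462.6, 576.6 and 465.3 CPM in the mutant, against 547.0, 442.1 and 557.2 CPM in WT, and the groups overlapped through the libraries numbered 2. The 31A genes made up 175.9 ± 14.04 CPM in the mutant and 216.4 ± 4.21 CPM in WT, and the cyp-35 genes 70.5 ± 14.03 CPM in the mutant and 85.3 ± 16.3 CPM in WT. The 31A share of P450 RNA without emb-8 was 50.3%, 42.5% and 52.0% in the mutant libraries, against 51.5%, 53.0% and 47.1% in the WT libraries.

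**Figure D4:**
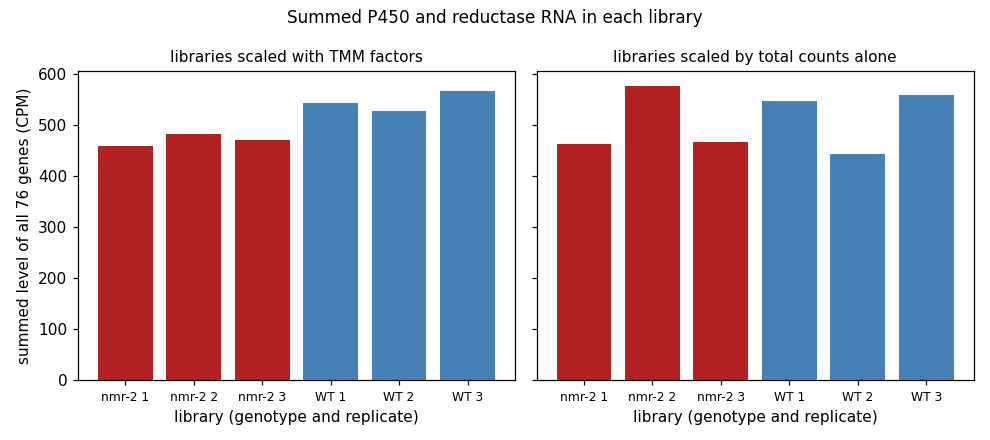
Summed CPM of all 76 genes in each library, nmr-2(ok3324) in red to the left of WT in blue, with TMM factors in the left panel and with library totals alone in the right panel. With TMM factors the mutant bars, 457.6 to 482.6 CPM, all lie below the WT bars; with totals alone the groups overlap.

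With all tested genes ordered by mean CPM and cut into 10 bins of like size, the median log2 fold change was 0.28 in bin 1, the lowest, and -0.19 in bin 10. Bins 1 to 5 held 9, 5, 7, 10 and 5 of the 44 P450 genes, and bin 10 held 0. In bin 4, 2.77 to 5.33 CPM, the 10 P450 genes had a median of -0.22 where all genes had 0.18, and in bin 5, up to 10.6 CPM, the 5 P450 genes had -0.36 where all genes had 0.10. In bin 1 the 9 P450 genes had 0.18 where all genes had 0.28. Bin 2 ran the other way, with 0.42 for its 5 P450 genes where all genes had 0.27, and bin 3 had -0.09 for 7 P450 genes where all genes had 0.24. In bin 6 the 1 P450 gene had 0.05 where all genes had 0.02, and in bins 7, 8 and 9, with 2, 2 and 3 P450 genes, these had -0.07, -0.26 and -0.29 where all genes had -0.01, -0.03 and -0.08.

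The libraries numbered 2 stood apart within each genotype for many of these genes. nmr-2(ok3324) replicate 2 was the highest mutant library for 27 of 44 genes (61.4%), and WT replicate 2 the lowest WT library for 23 (52.3%), where all tested genes gave 40.6% and 37.5%. Both held for 16 genes (36.4%), and for 22.3% of all tested genes. cyp-14A1 was one of them: its counts were 6, 26 and 10 in the mutant libraries, against 18, 2 and 23 in the WT libraries. cyp-34A9, with 20, 25 and 9 counts in the mutant, against 17, 4 and 27 in WT, and cyp-14A2, with 19, 32 and 24 in the mutant, against 19, 6 and 26 in WT, had the same order. The 31A genes did not follow it: the lowest mutant library for each of the 3 was replicate 2. Spread within a group differed between genes. The coefficient of variation was 1.70% in the mutant and 3.41% in WT for emb-8, 9.57% in the mutant and 5.24% in WT for cyp-31A2, and 24.1% in the mutant and 24.2% in WT for cyp-35A2.

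**Figure D5:**
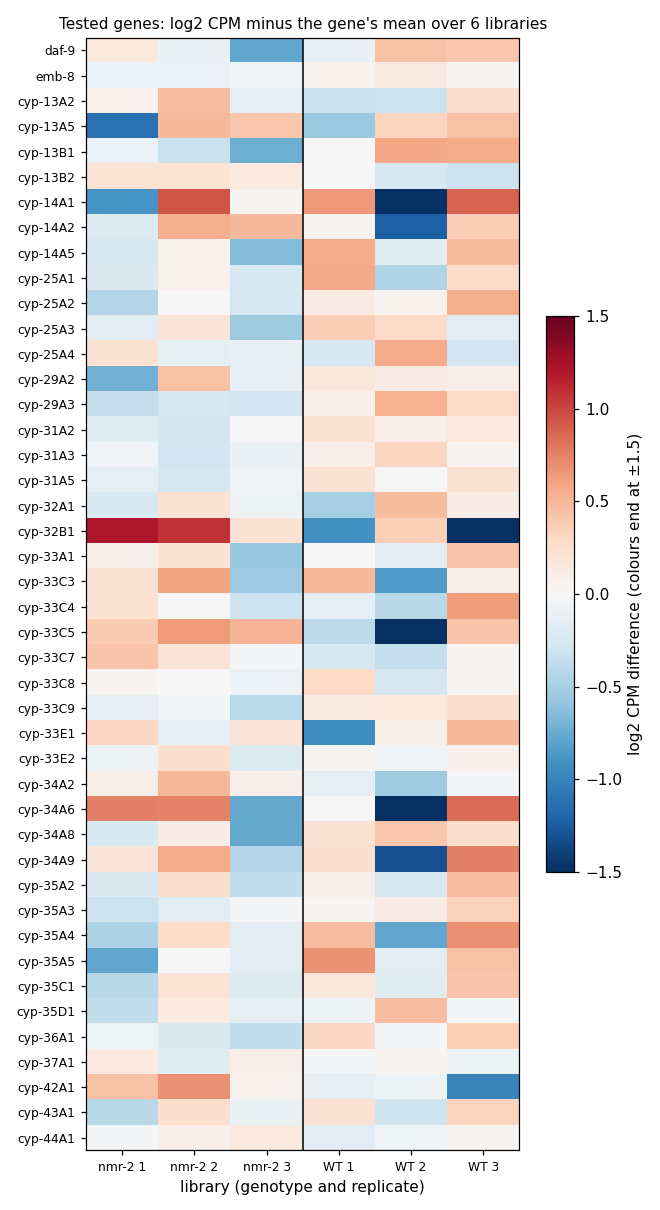
Log2 CPM of each tested gene minus its mean over the 6 libraries, nmr-2(ok3324) libraries left of the line and WT libraries right of it. Several 14A, 33C, 34A and 35A genes, cyp-14A1 and cyp-34A9 among them, are at their highest for the mutant in its replicate 2 and at their lowest for WT in its replicate 2, while emb-8, cyp-44A1 and the 31A genes vary little.

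Over the 6 libraries the genes most like cyp-31A2, the member with the smallest p, were cyp-31A5 (Pearson r of log2 CPM 0.96), emb-8 (0.79), cyp-35A3 (0.76), cyp-36A1 (0.70) and cyp-35A5 (0.69). These are descriptions over 6 points that share library scaling and the difference between genotypes, and cyp-31A5 can share reads with cyp-31A2.

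The 32 untested genes include several known for strong induction. cyp-35B1, a target gene of DAF-16, cyp-35B2, cyp-35B3, cyp-14A3, cyp-25A6 and cyp-33B1 had no count in any library, which allows up to 0.106 to 0.145 CPM in each. cyp-13A7, which responds to rifampicin, had 0 counts in the mutant libraries and 1 count in the WT libraries. cyp-13A12, known for a role in the behavioural response to reoxygenation, had 4, 9 and 5 counts in the mutant, against 11, 8 and 18 in WT. Scaled for depth, the sums of 18 and 37 counts came to a mutant-over-WT ratio of 0.440 (95% exact interval 0.236 to 0.792), which covers counting error only. cyp-33D1 had 5, 9 and 2 counts in the mutant, against 5, 0 and 0 in WT (ratio 2.89, interval 1.01 to 10.1). cyp-33C11 had 1, 8 and 1 counts in the mutant, against 0, 0 and 1 in WT (ratio 9.04, interval 1.29 to 392.3). The counts summed to 8 in the mutant and 9 in WT for cyp-23A1, and to 8 in the mutant and 5 in WT for cyp-37B1. These intervals leave out the spread between libraries, and the genes below the filter were not tested for a difference.

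Because nmr-2 lies on chromosome V with most of these genes, the members near nmr-2 were read separately. Within 2 Mb of it are 6 members. cyp-34A2, 0.277 Mb away, had 0.568, 0.784 and 0.570 CPM in the mutant libraries, against 0.473, 0.339 and 0.523 CPM in the WT libraries, without overlap (0.51, SE 0.49, edgeR adjusted p = 0.59). cyp-35C1 and cyp-35D1, at 1.11 and 1.06 Mb, had -0.27 and -0.24. With 1 library left out cyp-35D1 ranged from -0.40 to -0.06. cyp-34A1, cyp-33D1 and cyp-37B1 were not tested.

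The regulators and partner enzymes listed beside the P450 genes had 1 call. Of 18 tested regulators of the response to foreign compounds 0 passed (median 0.01), with the smallest p in the nuclear receptor gene nhr-114 (-0.34, SE 0.12). Of 4 flavin monooxygenase genes 0 passed (median -0.10), with fmo-1 at 0.55 (SE 0.18). Of 27 sulfotransferase and short-chain dehydrogenase genes 0 rose and 1 fell, dhs-25, at 206 ± 27.7 CPM in the mutant and 301 ± 21.8 CPM in WT (-0.55, SE 0.13, edgeR adjusted p = 0.034), and 26 did not pass (median -0.01). Among markers of other tissues, 0 of 8 epidermal (median -0.11; rol-6, a collagen gene, at 1.13, SE 0.30), 0 of 7 body wall muscle (median 0.15; the myosin gene myo-3 at 0.36, SE 0.11) and 0 of 9 neuronal genes (median 0.24; the syntaxin gene unc-64 at 0.43, SE 0.19) passed.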

How the data were processed

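RNA-seq of 3 nmr-2(ok3324) and 3 WT libraries of whole animals was deposited by the authors as raw counts per gene, 1 table per library. The tools listed, per the submitters' processing notes, were HTSeq and DESeq2, with neither version nor role. For the aligner, build, annotation and strand setting the entry is: not given in the sources used here. Symbols came from a table pairing 44059 of 46911 identifiers, and positions and exon lengths from the WBcel235 annotation of Ensembl, which holds 46863.

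Counts were analysed with edgeR 4.0.16 in R 4.3.3: filterByExpr by genotype (nmr-2 kept in any case; 13138 genes), TMM factors, robust glmQLFit and glmQLFTest, and Benjamini-Hochberg adjustment over all genes at 0.05. Each SE is the size of the log2 fold change over the root of its F statistic. Log2 CPM used a prior count of 2. The members, gene lists (14) and tests were chosen with earlier results of these data known. Named members are those with an unadjusted p under 0.05, those with a published role, and the highest of each subfamily; from each list, called genes or the one with the smallest p are named. Other genes were named after their values were seen. Libraries of 1 genotype differed beyond sampling noise (chi-square per degree of freedom 9.59 to 42.0).

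Alternatives were DESeq2 1.42.0, limma-voom (limma 3.58.1), RLE factors, library totals, no filter, 1 CPM in 3 libraries, glmTreat at 1.5-fold, a replicate block, leaving out each library or both numbered 2, and the 31A genes counted as 1. On simulated counts (12858 genes) the test recovered 38.0%, 63.9% and 100.0% of genes changed 1.5-, 2- and 4-fold, with 10 false calls among 139. These shares are over genes of all levels. The median SE was 0.27 for the tested P450 genes and 0.18 for all tested genes, so recovery among P450 genes can be lower. Figures used matplotlib 3.10.9.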

Additional observations from a re-analysis of the deposited data

How the results depend on the processing

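The count of 0 P450 genes that rose held in all alternatives, and that of 0 that fell in all but those named here: 6 fell without both libraries numbered 2, and leaving out 1 library each gave 0 to 1. The number of genes that fell among all tested, 49, was 101 with DESeq2, 14 against a fold of 1.5, 16 with library totals, 155 without a low-count filter, 18 with the replicate block, 185 without both libraries numbered 2, and 30 to 52 with 1 library left out. The number that rose was 235, and 117 against a fold of 1.5, 441 without the filter, 124 with the replicate block, and 151 to 226 with 1 library left out (WT replicate 3 left out gave 151, nmr-2(ok3324) replicate 1 left out gave 154, and of the genes that fell 30 were found with WT replicate 1 left out). The cause was not tested. The replicate numbers did not pair the libraries: deviations from the group means of same-numbered libraries correlated at 0.00, -0.28 and -0.10, and no library correlated best with its own number. The median log2 fold change of the tested P450 genes, -0.16, was 0.02 with library totals and, over the same 44 genes, -0.32 without both libraries numbered 2 (-0.35 over the 46 genes tested there), and lay between -0.25 and -0.08 with 1 library left out. The 32 genes under the low-count filter were not tested.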
